A study of Mus musculus with 2 samples.

Results

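Glucose breakdown and the transcriptional response to low oxygen were followed through 33 genes in single tumour-infiltrating immune cells. The set held 22 genes of glucose uptake, glycolysis, lactate handling and their regulation, called glycolysis genes here, and 11 genes of the hypoxia response, called hypoxia genes. They were matched by gene symbol to the 32285 features of each count matrix, and all 33 symbols were present in both matrices. The list was drawn up with earlier results of these data known. The symbol Aldoa stood for 2 features, of which ENSMUSG00000030695 held the counts and ENSMUSG00000114515 held 0 and 2 unique molecular identifiers (UMIs).

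The cells came from B16-F0 tumours, a transplantable mouse melanoma, and had been sorted as CD45+ DAPI-, which keeps living leukocytes of every lineage. There were 2 libraries, 1 labelled WT and 1 labelled KO, made with 10x Genomics 3′ v3.1 chemistry, and the labels name neither the knocked-out gene, the cells it was removed from, nor the age or number of the mice. The knockout itself could therefore not be checked in the counts. The cell type label, TIL-Treg, went against the data, since all major leukocyte lineages were present. Cells gated as regulatory T (Treg) cells, without use of Foxp3, made up 2.35% of kept wild-type and 5.16% of kept knockout cells.

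Glycolysis turns glucose into pyruvate, and cells that divide or work with little oxygen convert much of that pyruvate to lactate and export it. Under normal oxygen the prolyl hydroxylases encoded by the Egln genes mark the hypoxia-inducible factor HIF-1α, encoded by Hif1a, for destruction. In hypoxia the factor persists and activates glucose transporters, most glycolytic enzymes and targets such as Vegfa, Bnip3 and Adm, and in T cells and macrophages antigen, cytokine and Toll-like receptor signals also raise Hif1a and glycolysis at normal oxygen.

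The wild-type matrix held 98438084 UMIs over 11432 barcodes and the knockout matrix 112544655 over 11398, and 42 barcodes occurred in both. After filters 10133 and 10116 cells remained, with medians of 4759 and 5917.5 UMIs. Cells were divided into 16 classes by markers that are not among the 33 genes. The 9 classes with at least 100 cells in both libraries were compared, which were Treg, CD4 conventional, CD8, naive T, other T, NK and B cells, Ly6c2 monocytes and C1q macrophages. The share of B cells was 34.2% in the wild-type library against 4.04% in the other. Foxp3, the defining Treg factor, which the Treg gate did not use, stood at 129.9 CPM in wild-type and 32.0 CPM in knockout Treg cells, against 1.42 and 4.78 CPM in CD4 conventional cells. That gate called 238 wild-type and 522 knockout cells, whereas a gate by a Foxp3 UMI called 143 and 135. The larger share of Treg cells in the knockout library was therefore not seen with the Foxp3 gate. Unless stated, Treg below means the gate without Foxp3. The summed level of 6 melanoma genes was between 1.39 and 21.5 CPM in the compared classes. Levels here are counts per 1000000 UMIs of a class sum (CPM). One tag is counted per RNA molecule at its 3′ end, so no level was divided by gene length, and levels are compared between classes and not between genes. With 1 library per genotype there is no replicate and no test, and the 95% intervals in square brackets cover counting error only.

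HIF-1 binds DNA at the core motif ACGTG, with GCGTG as a second form. The 250 bases before the RefSeq start (build GRCm38.p6) were searched on both strands for 31 of the 33 genes, those with a promoter in the table. ACGTG was present in 19 of the 31 genes, 11 of 21 glycolysis and 8 of 10 hypoxia genes, against 18.5% of 27025 genes with a promoter of the same length. GCGTG was present in 21 of 31 genes, against 30.9% of all, and one or the other in 28 of 31, against 41.5%. In 6 genes the match was the palindrome CACGTG, which holds ACGTG on both strands and is also the E-box bound by Myc and USF factors. A match describes letters and not a bound site. The sites below were chosen because their genes carry the class pattern described next; they run 5′ to 3′ on the strand of the gene, with the motif or its reverse complement CACGT in capitals.
Slc2a1, chr4:119108697-119108725, plus strand, 32 bases before the start: gtcccgccccggACGTGctccccaggccc
Hk2, chr6:82774490-82774518, minus strand, 48 bases before the start: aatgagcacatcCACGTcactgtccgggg
Pgk1, chrX:106186938-106186966, plus strand, 146 bases before the start: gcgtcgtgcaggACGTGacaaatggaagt
Ldha, chr7:46845744-46845773, plus strand, 43 bases before the start: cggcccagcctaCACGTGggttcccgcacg
Slc16a3, chr11:120949028-120949056, plus strand, 23 bases before the start: caggcagcggtgACGTGcgcgggggacgt
Bnip3, chr7:138909597-138909626, minus strand, 103 bases before the start: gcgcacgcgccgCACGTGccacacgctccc
Egln3, chr12:54204087-54204115, minus strand, 225 bases before the start: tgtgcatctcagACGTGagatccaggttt
Hilpda, chr6:29272571-29272599, plus strand, 39 bases before the start: gatggccagcggACGTGccccagggcgag

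Macrophages, monocytes and Treg cells held the highest summed glycolysis levels of the compared classes, and B cells the lowest, in both libraries. The 22 glycolysis genes summed to 11316 CPM in wild-type and 12797 CPM in knockout C1q macrophages. Ly6c2 monocytes held 8440 and 9280 CPM, and Treg cells 8294 and 7887 CPM. These 3 classes were followed by CD8 cells, at 5510 and 6785 CPM, and other T cells, at 5167 and 5714 CPM. CD4 conventional cells held 4200 and 4902 CPM, NK cells 3024 and 3488 CPM, and naive T cells 2835 and 3945 CPM. B cells lay well below all of these at 1520 and 1821 CPM. The order was the same in both libraries except that wild-type NK cells lay above and knockout NK cells below naive T cells. The interval of wild-type Treg cells, 8186 to 8404 CPM, lay close to the level of wild-type monocytes.

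The hypoxia genes kept a similar order, from 2141 and 2553 CPM in C1q macrophages to 427 and 518 CPM in B cells, with Treg cells at 1740 and 1877 CPM. Much of that sum was Mif, a cytokine gene that many leukocytes express without hypoxia. Without Mif, monocytes stood at 1187 and 1236 CPM, macrophages at 955.5 and 1195 CPM, and Treg cells at 745.4 and 846.1 CPM. Without Mif and Hif1a, Treg cells fell to 365.1 and 371.2 CPM and stayed above the other lymphoid classes compared, while monocytes held 945.8 and 985.3 CPM.

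**Figure D1:**
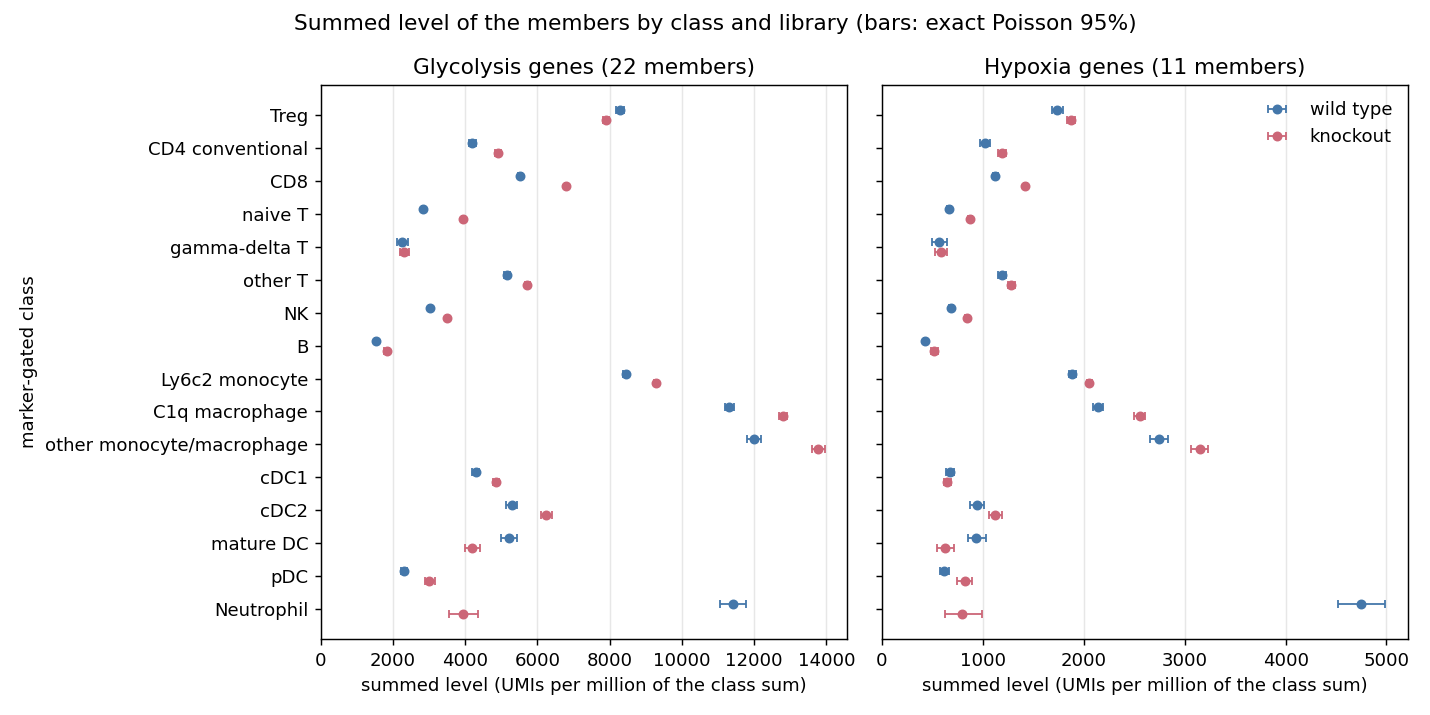
Summed level of the 22 glycolysis genes (left) and the 11 hypoxia genes (right) in CPM, for 16 marker-gated classes, with exact Poisson 95% intervals. Points are 1 library each. Monocyte and macrophage classes and wild-type neutrophils lie to the right, and B cells, gamma-delta T cells and pDC to the left.

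For single genes, 30 of the 33 had the same highest class in both libraries. Among glycolysis genes, 11 of 22 were highest in C1q macrophages, 5 in Ly6c2 monocytes, 2 in Treg cells, 1 in CD8 cells and 1 in naive T cells. Among hypoxia genes, 5 of 11 were highest in monocytes, 4 in macrophages and 1, Hif1a, in Treg cells. The 3 genes whose highest class differed between the libraries were Pfkm, Slc16a1 and Egln1, each with overlapping intervals of its top classes.

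**Figure D2:**
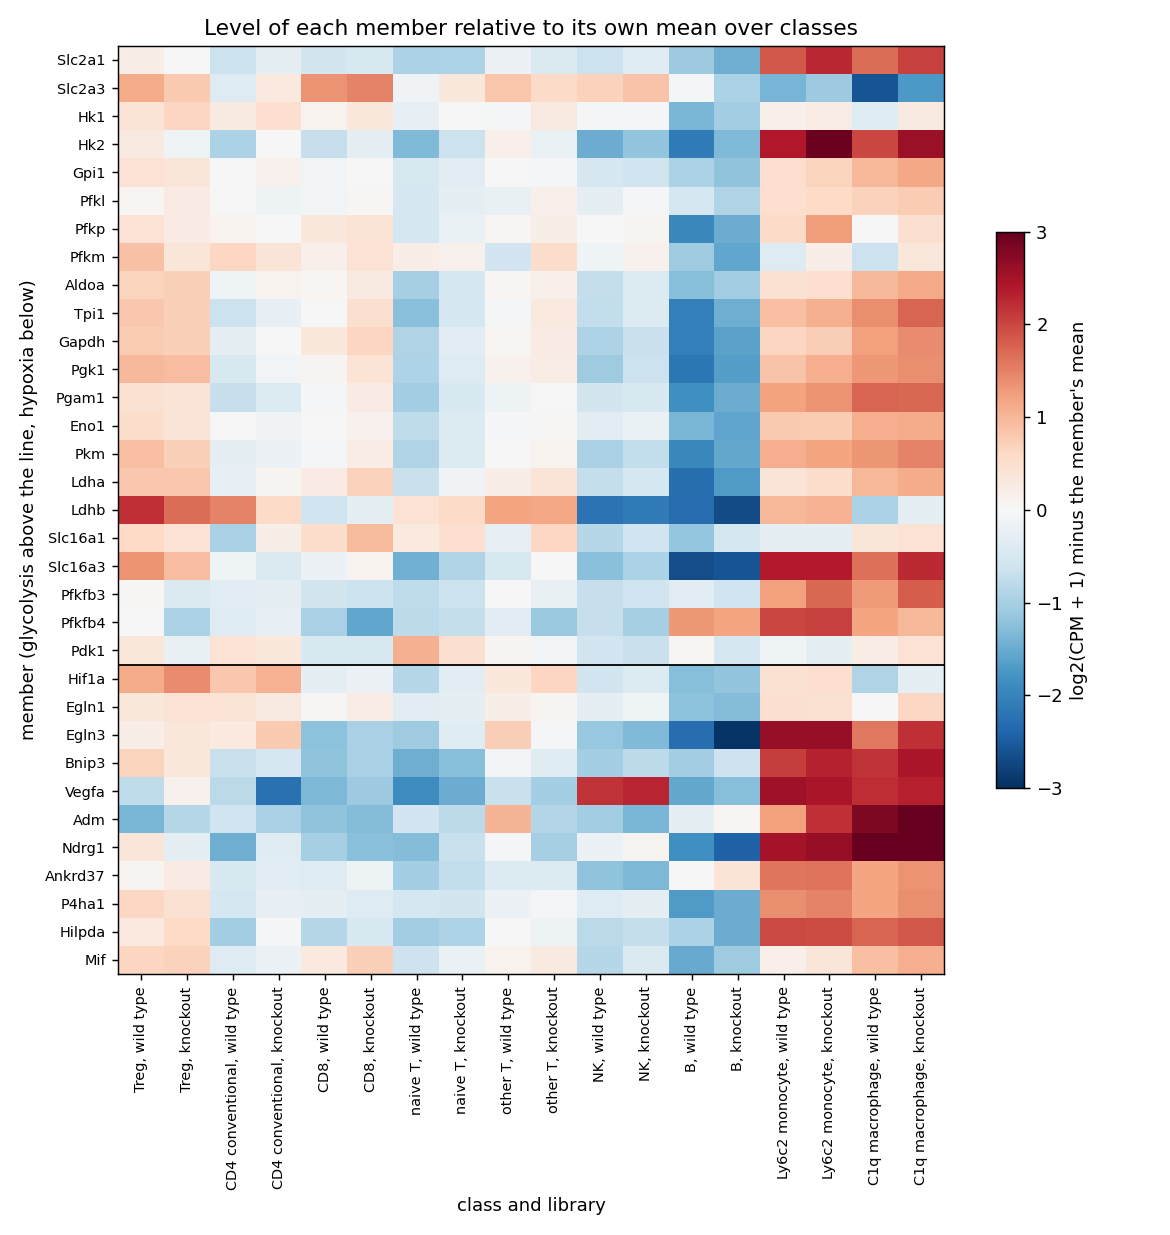
Level of each of the 33 genes in each compared class and library, as log2(CPM + 1) minus the gene's own mean over the 18 columns, with colours ending at 3 either way. Most rows are red in the monocyte and macrophage columns and blue in B cells. Among the exceptions, Slc2a3, Ldhb and Hif1a are blue in macrophages, Pfkfb4 is red in B cells, and Pdk1 is highest in naive T cells.

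Among the compared classes, the glucose transporters divided the lymphoid classes from monocytes and macrophages. Slc2a1, which encodes the widely expressed transporter GLUT1, was highest in Ly6c2 monocytes, at 149.8 CPM in the wild-type and 196.9 CPM in the knockout library. In C1q macrophages it stood at 131 and 169.5 CPM, and in T, NK and B cells between 14.04 and 46.7 CPM. Slc2a3, which encodes the high-affinity transporter GLUT3, was instead higher in T and NK cells than in both myeloid classes. Of the compared classes, CD8 cells held the most Slc2a3, at 59.1 and 66.1 CPM, and macrophages the least, at 2.95 and 6.26 CPM. Knockout B cells, with 20 Slc2a3 UMIs, lay near knockout monocytes, which held 10.2 CPM. As a share of the UMIs of both genes, Slc2a3 made up 68.6% [65.0, 72.0] and 69.9% [67.7, 71.9] in CD8 cells. In monocytes that share was 5.10% [3.82, 6.65] and 4.92% [4.04, 5.93]. Neutrophils, a myeloid class too small to compare, did not share the low value. Their Slc2a3 share was 46.7% [40.1, 53.4] and 75.0% [55.1, 89.3], from 107 and 21 Slc2a3 UMIs.

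Among the first enzymes, the hexokinases that trap glucose in the cell showed the same divide. Hk2, the inducible form, stood at 183.6 and 268.0 CPM in monocytes and 140.3 and 208.2 CPM in macrophages, against 7.24 and 12.9 CPM in B cells. Hk1, the constitutive form, varied less, from 16.7 and 21.3 CPM in B cells to 59.4 and 70.4 CPM in Treg cells. Hk2 made up 78.6% and 83.8% of the Hk1 and Hk2 UMIs in monocytes and 80.1% and 79.3% in macrophages. In CD8 cells it made up 30.02% and 32.7%, so the myeloid classes differed from CD8 cells in the same direction in both libraries.

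Phosphofructokinase, which commits glucose to glycolysis, is a tetramer of subunits from Pfkl, Pfkp and Pfkm. Pfkp was the leading source of UMIs in T and NK cells, at 71.3% to 77.1% of the 3 genes. In wild-type B cells it made up 49.9% [46.2, 53.6] and Pfkl 49.4% [45.7, 53.1], while in the 113 such UMIs of knockout B cells Pfkp made up 64.6% [55.0, 73.4]. Pfkm, the muscle form, was near its detection limit and was measured, at 20 or more UMIs over both libraries, in 5 of 9 classes. Aldoa and Tpi1, which split the sugar and interconvert the products, were highest in macrophages, at 1180 and 1335 CPM for Aldoa and 710.2 and 896.3 CPM for Tpi1.

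The genes of the lower pathway, which yields ATP and pyruvate, all had their highest level in macrophages and their lowest in B cells. Gapdh stood at 3628 and 4131 CPM in macrophages and 369.7 and 505.3 CPM in B cells, a span of 9.81-fold and 8.18-fold. For Pgk1, phosphoglycerate kinase, that span was 11.2-fold and 8.30-fold, for Pkm, pyruvate kinase, 9.54-fold and 8.09-fold, and for Eno1, enolase, 5.55-fold and 6.63-fold. Reads of Gapdh, Eno1 and other genes of this block can be split with near-identical copies: the Eno1 copy Eno1b held 863 wild-type and 1186 knockout UMIs. Copies of the other genes were not counted, so these levels are uncertain.

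Lactate formation and export followed the block, with 1 contrast between paralogs. Ldha, whose subunit favours lactate formation, was highest in macrophages, at 1150 and 1246 CPM, and next in Treg cells, at 1004 and 1002 CPM. Ldhb, whose subunit is the heart form of the enzyme, was highest in Treg cells, at 28.6 and 19.6 CPM, and at or below 0.494 CPM in NK and B cells. Slc16a3, the exporter MCT4, was highest in monocytes at 153.6 and 154.2 CPM, and lowest in B cells at 3.66 and 3.93 CPM. Slc16a1, the carrier MCT1, lay between 3.66 and 19.2 CPM in the 9 compared classes. Slc16a3 made up 95.3% of the UMIs of both carriers in the monocytes of each library and 45.8% [38.8, 52.9] and 52.04% [45.2, 58.8] in naive T cells. In B cells it made up 45 of 90 wild-type and 7 of 18 knockout UMIs.

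The 3 regulators had different highest classes. Pdk1, a kinase that keeps pyruvate out of the citrate cycle and a known HIF-1 target, was highest in naive T cells, at 71.4 and 46.8 CPM. Its lowest level was in NK cells, at 22.1 and 20.6 CPM. Pfkfb4, one of the enzymes that set fructose 2,6-bisphosphate, was highest in monocytes, at 26.7 and 27.3 CPM. B cells came second for Pfkfb4, at 15.9 and 14.6 CPM, above every T and NK class, which lay between 1.35 and 5.94 CPM. Its relative Pfkfb3 was highest in macrophages, at 52.2 and 76.2 CPM.

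**Figure D3:**
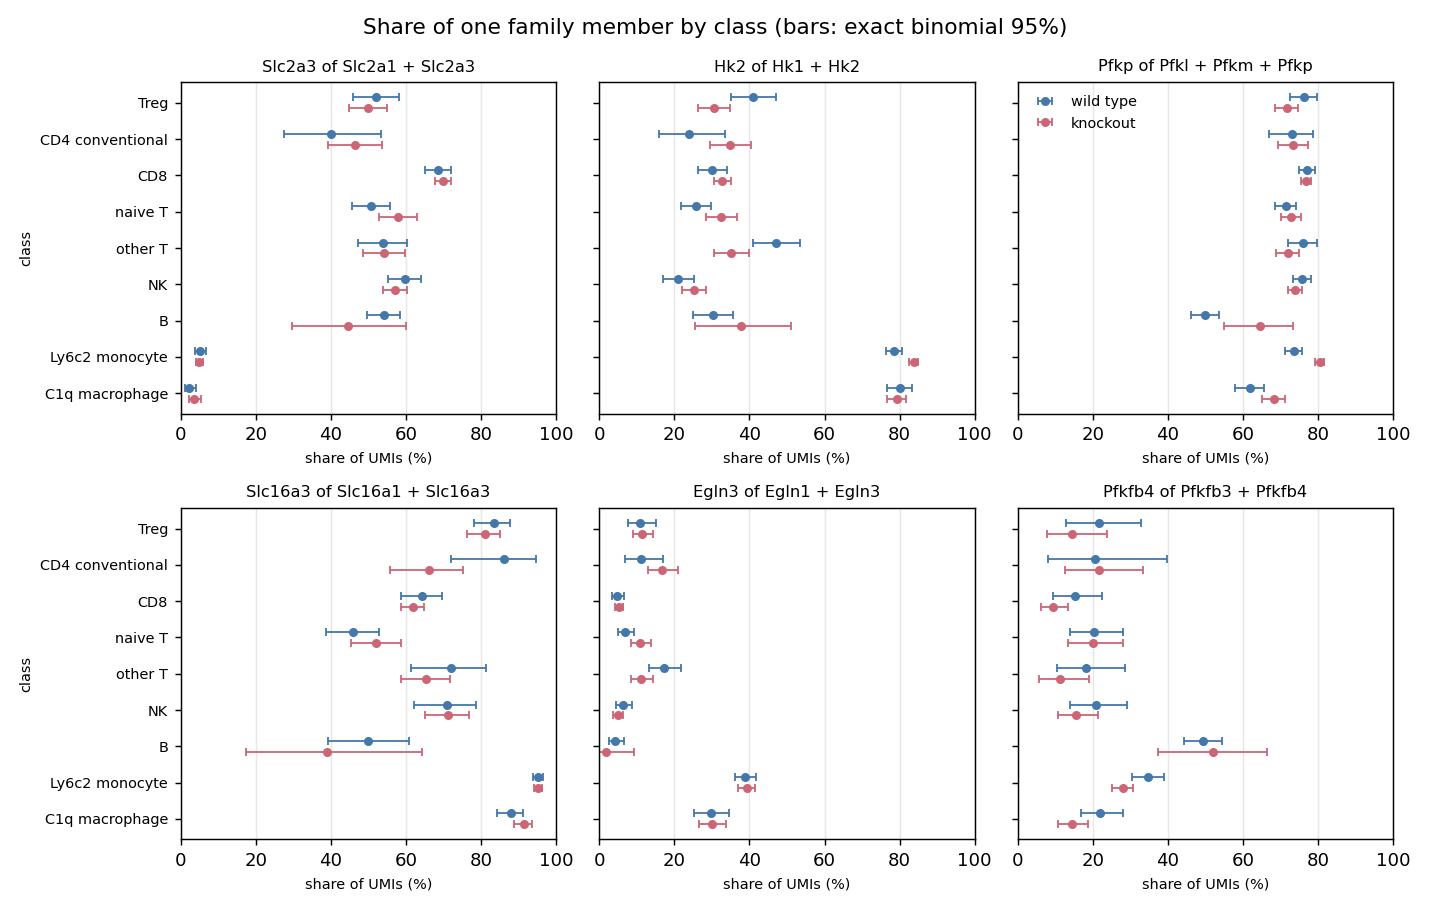
Share of UMIs that 1 member of a gene family held among the listed members, in percent, by compared class and library, with exact binomial 95% intervals. Slc2a3 falls and Hk2 rises from lymphoid to myeloid classes, Egln3 has its largest shares in monocytes and macrophages, and Pfkfb4 in B cells.

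Hif1a itself was highest in Treg cells, at 380.3 CPM in the wild-type and 474.9 CPM in the knockout library, and next in CD4 conventional cells, at 309.2 and 361.8 CPM. It was low in B cells, at 72.6 and 77.5 CPM. Macrophages, where 4 of the 11 hypoxia genes were highest in both libraries, held 93.5 and 144.5 CPM of Hif1a RNA. Egln1, the main oxygen sensor, lay between 32.0 and 124.4 CPM, a span of 3.34-fold in the wild-type and 3.89-fold in the knockout library. Egln3, a sensor that HIF itself induces, stood at 72.3 and 71.5 CPM in monocytes and at 1.46 and 0.561 CPM in B cells, where the knockout value was 1 UMI. Egln3 made up 38.9% and 39.3% of both Egln genes in monocytes and 4.74% and 5.14% in CD8 cells.

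Of the 11 hypoxia genes, 5 were highest in monocytes and 4 in macrophages in both libraries. Bnip3, a mitophagy receptor, stood at 174.2 and 212.8 CPM in macrophages and 13.0 and 14.96 CPM in naive T cells. Ndrg1, a stress response gene, stood at 161.9 and 187.5 CPM in macrophages and 4.72 and 2.81 CPM in B cells. Hilpda, a lipid droplet protein, was highest in monocytes, at 229.1 and 223.3 CPM, and there P4ha1, a collagen prolyl hydroxylase, stood at 96.8 and 103.8 CPM. Ankrd37 was highest in monocytes as well, at 98.4 and 99.6 CPM. Vegfa, the angiogenic growth factor, stood at 53.2 and 49.4 CPM in monocytes and 41.9 and 45.7 CPM in macrophages. In NK cells Vegfa stood at 40.6 [36.2, 45.3] and 44.4 [40.7, 48.3] CPM, as high as in macrophages within counting error, while every T and B class lay at or below 9.17 CPM. With each cell thinned to 1500 UMIs, 6.22% and 5.86% of NK cells held a Vegfa UMI, against 0.122% and 0.362% of CD8 cells and 0.289% and 0.735% of B cells, which serve as background; median depths before thinning were 5208 and 4659 UMIs in NK, 6302 and 6941 in CD8 and 3324.5 and 3429 in B cells. No single cell held more than 2.58% of the Vegfa UMIs of NK cells. Adm, which encodes the vasodilator adrenomedullin, was measured only in monocytes and macrophages among the compared classes. Treg cells held no Adm UMI in the wild-type library, whose upper Poisson bound was 1.37 CPM. Mif, a cytokine, was highest in macrophages, at 1185 and 1358 CPM, but stood higher in Treg cells, at 994.3 and 1031 CPM, and in CD8 cells, at 776.9 and 1038 CPM, than in monocytes, at 699.0 and 820.1 CPM.

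Treg cells were then set against CD4 conventional cells, the nearest other helper class. By the size rule, a difference of at least 1.5-fold whose interval leaves out 1, in both libraries, 13 of 30 measured genes were higher in Treg cells and 0 were lower. The rule, which is not a test, was met upward by 8.71% and downward by 4.71% of all 9078 measured genes. The 13 genes were Aldoa, Tpi1, Gapdh, Pgk1, Pgam1, Pkm, Ldha, Ldhb, Slc16a3, Bnip3, P4ha1, Hilpda and Mif. Ldha stood at 1004 against 482.0 CPM in the wild-type library, a log2 difference of 1.06 [0.94, 1.18], and the knockout library gave 0.72 [0.64, 0.80]. For Slc16a3 the log2 differences were 1.496 [0.98, 2.04] and 1.40 [1.00, 1.81]. Of 7 pentose phosphate genes 2 were higher in Treg cells. Of 21 citrate cycle genes 0 met the rule either way, with median log2 differences of 0.34 and 0.22 against 0.87 and 0.49 for glycolysis genes. Cycling cells, called by at least 3 of 9 proliferation markers, made up 23.9% and 17.0% of Treg cells but 1.36% and 3.83% of CD4 conventional cells. With Treg cells gated by a Foxp3 UMI instead, 6 genes were higher.

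CD8 cells held more of the pathway than naive T cells. Of 32 measured genes, 12 were higher in CD8 cells by the size rule in both libraries and 2 were lower, against 11.3% and 5.74% of all 11091 measured genes. Those higher were Slc2a3, Pfkp, Aldoa, Tpi1, Gapdh, Pgk1, Pgam1, Pkm, Ldha, Slc16a3, Ankrd37 and Mif. Gapdh stood 1.22 [1.18, 1.26] and 0.97 [0.94, 1.00] higher on the log2 scale, and Slc2a3 1.49 [1.24, 1.74] and 1.21 [1.00, 1.42]. The lower genes were Ldhb, at -1.26 [-1.96, -0.59] and -0.98 [-1.45, -0.50], and Pdk1, at -1.58 [-1.82, -1.34] and -0.99 [-1.19, -0.79]. The median of all measured genes was 0.16 and 0.07, so these values should be read relative to that shift. Cycling cells made up 18.1% and 27.8% of CD8 and 4.12% and 4.98% of naive T cells.

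Between the myeloid classes the genes split. C1q macrophages exceeded Ly6c2 monocytes in 5 of 32 measured genes by the size rule in both libraries and fell below them in 5, against 15.2% and 9.87% of 10054 measured genes, so neither count stood far from the background share. Gapdh, Ldha, Slc16a1, Adm and Mif were higher in macrophages, Adm by 1.76 [1.11, 2.43] and 1.86 [1.49, 2.23] on the log2 scale. Slc2a3, Pfkp, Ldhb, Pfkfb4 and Hif1a were lower, Hif1a by -1.37 [-1.55, -1.19] and -0.80 [-0.93, -0.66]. The median of all measured genes was 0.11 and 0.12. Of 21 citrate cycle genes 7 were higher in macrophages and 0 lower. Cycling cells made up 34.0% and 27.7% of macrophages but 0.324% and 0.533% of monocytes. The even split depended on the setting. Without cycling cells more of the 33 genes were higher than lower in macrophages, and with clusters as classes more were lower, as counted in the last section.

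Cell division ran with glycolysis in lymphocytes and against it in macrophages. Cycling CD8 cells held 7765 CPM of the glycolysis genes in the wild-type and 8409 CPM in the knockout library, against 3856 and 4289 CPM in non-cycling CD8 cells. Cycling naive T cells, 48 in each library, held 6794 and 8781 CPM against 2234 and 2706 CPM. Cycling Treg cells held 10199 and 9403 CPM against 6258 and 6743 CPM. In C1q macrophages the order was reversed: 51 and 57 cycling cells held 9587 [9442, 9733] and 11498 [11336, 11662] CPM, below the 13168 [12993, 13345] and 13885 [13722, 14049] CPM of 99 and 149 non-cycling cells. The hypoxia genes parted further there, at 1504 and 1743 CPM in cycling against 2823 and 3231 CPM in non-cycling macrophages. Cycling and non-cycling cells come from the same library, so these differences do not turn on the genotype, and the gate used no glycolysis or hypoxia gene.

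**Figure D4:**
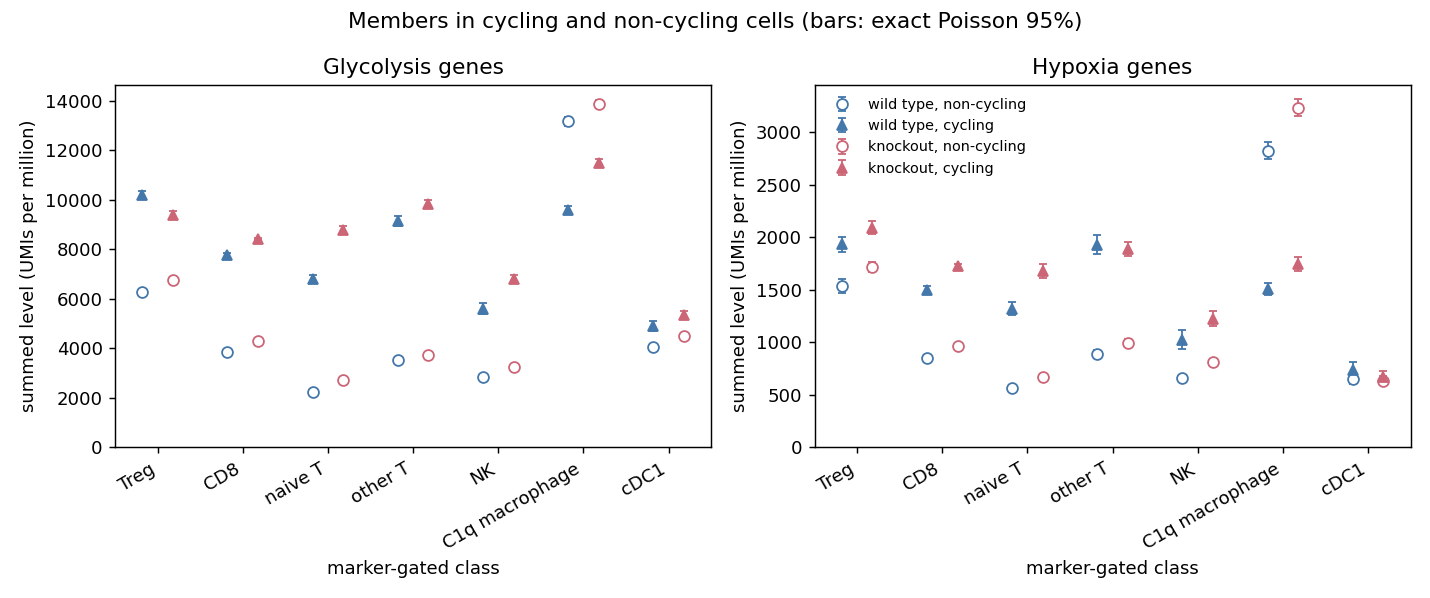
Summed level of glycolysis genes (left) and hypoxia genes (right) in CPM, in cycling (triangles) and non-cycling (circles) cells of 7 classes in each library, with exact Poisson 95% intervals. Triangles lie above circles in the T and NK classes and below them in C1q macrophages; in cDC1 cells the hypoxia intervals overlap in both libraries.

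Gene by gene, 10 of 31 measured genes were higher in cycling than in non-cycling CD8 cells by the size rule in both libraries and 1 was lower, against 17.7% and 13.6% of 9978 measured genes. Ldha stood at 1060 against 410.8 CPM in the wild-type library, a log2 difference of 1.37 [1.29, 1.45], and at 1.42 [1.37, 1.47] in the knockout library. The other higher genes were Tpi1, Gapdh, Pgk1, Pgam1, Eno1, Pkm, both lactate carriers and Mif, with Tpi1 the most at 1.64 and 1.54. Pdk1 was the lower gene, at -1.57 [-2.12, -1.05] and -0.85 [-1.11, -0.58]. Among the hypoxia genes only Mif met the rule, and the list had medians of 0.05 and 0.06. Dividing cells also held more of the citrate cycle, with 9 of 21 genes higher, and of the pentose phosphate pathway, with 4 of 7.

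The genotype comparison asked how the knockout library differed from the wild-type library within a class. Most measured glycolysis genes had a log2 ratio of knockout over wild type above 0 in every compared class but Treg cells, and few were large. Median ratios of the glycolysis genes were 0.23 in CD4 conventional, 0.25 in CD8, 0.35 in naive T, 0.11 in other T, 0.21 in NK and 0.29 in B cells, 0.11 in monocytes and 0.19 in macrophages, and -0.19 in Treg cells. The same medians over all measured genes lay between -0.08 and 0.10, the latter in naive T cells. Hypoxia genes had medians between 0.06 and 0.37, except in other T cells at -0.13. That exception was 0.05 with doublets kept, 0.28 in thinned cells, 0.11 with each cell weighed the same and 0.16 without cycling cells. It stayed below 0 in the other settings that held the class. With clusters of cells in place of the gate, the hypoxia median was -0.41 in naive T and -0.01 in B cells, and above 0 in the other classes. Of 297 gene and class pairs 282 were measured. Hif1a and Mif, like Aldoa, had a ratio above 0 in 9 of 9 classes, whereas Pdk1 had one above 0 in 1 of 9.

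**Figure D5:**
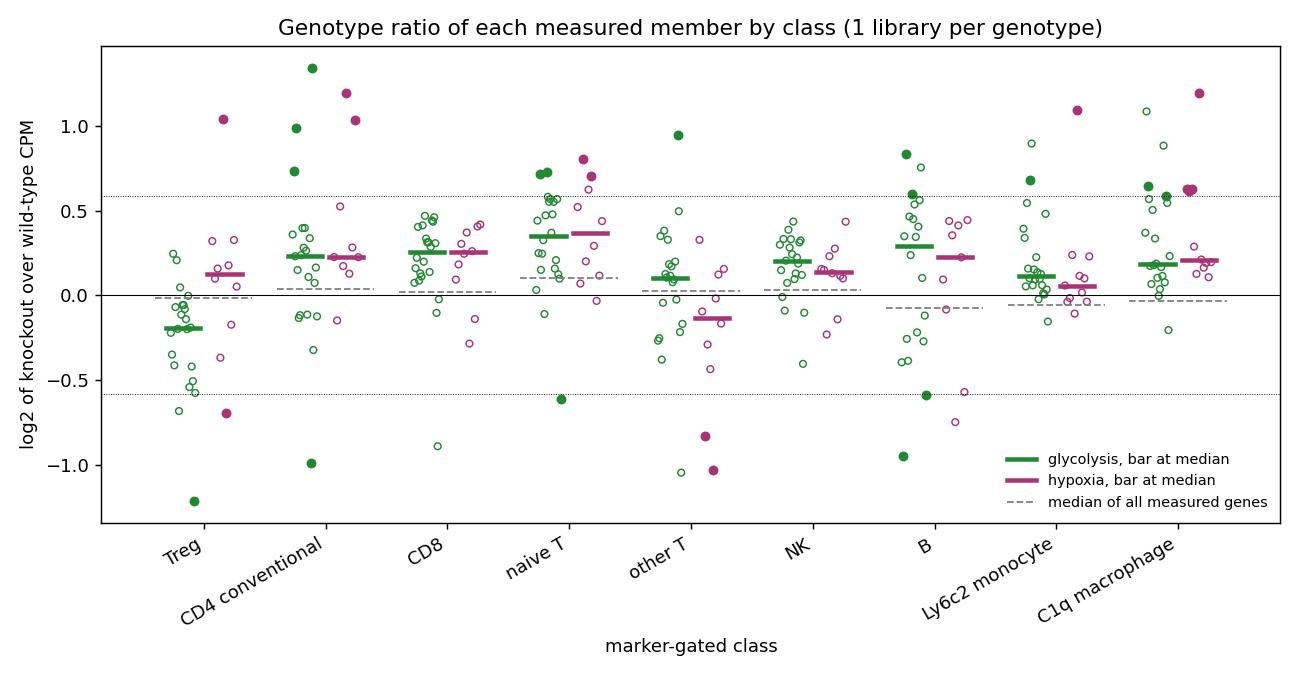
Log2 ratio of knockout over wild-type CPM for every measured gene by class, glycolysis genes left and hypoxia genes right in each class; filled points met the size rule, bars are list medians, dashed lines the median of all measured genes and dotted lines 1.5-fold. Most points lie between the dotted lines, and the glycolysis median lies below that of all genes in Treg cells alone.

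In Treg cells, 1 of 32 measured genes was higher in the knockout library and 2 were lower by the size rule, against 2.04% and 5.45% of 10073 measured genes. Gapdh stood at 2619 CPM in the wild-type and 2517 CPM in the knockout library, a ratio of -0.06 [-0.10, -0.01], and Ldha at 1004 and 1002 CPM. Pkm had a ratio of -0.20 [-0.28, -0.12], Hk2 of -0.41 [-0.78, -0.04], Bnip3 of -0.37 [-0.67, -0.07] and Slc2a1 of -0.22 [-0.55, 0.12]. Only 3 of the 22 glycolysis genes lay above 0. Hif1a went the other way, with 0.32 [0.21, 0.43].

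The Treg genes that met the rule were thinly counted. Pfkfb4 was lower, at -1.21 [-2.42, -0.04] from 16 and 12 UMIs, and Ndrg1 was lower, at -0.70 [-1.19, -0.20] from 68 and 73 UMIs. Vegfa was higher, at 1.04 [0.09, 2.10] from 12 and 43 UMIs, of which 1 knockout cell held 23.3%, and stood at -0.25 when doublets were kept. Without cycling cells the glycolysis median was 0.01 in place of -0.19, and in Treg cells gated by a Foxp3 UMI it was 0.00. Markers of monocytes and macrophages summed to 538.0 CPM in wild-type and 133.3 CPM in knockout Treg cells, with all 8 detected. Their part in these ratios was not tested.

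CD4 conventional cells had 5 of 30 measured genes higher and 1 lower, against 4.15% and 2.20% of all 9100 measured genes. Higher were Slc2a3, at 0.73 [0.07, 1.45], Hk2, at 0.99 [0.34, 1.69] from 24 and 106 UMIs, and Slc16a1, at 1.35 [0.08, 2.89] from 6 and 34 UMIs. The hypoxia genes Hilpda, from 27.0 to 55.5 CPM and a ratio of 1.04 [0.52, 1.58], and Ndrg1, at 1.20 [0.15, 2.41], were higher as well. Of the 46 knockout UMIs of Ndrg1 1 cell held 39.1%. Ldhb was lower, at -0.99 [-1.84, -0.13]. Gapdh had a ratio of 0.28, Ldha of 0.34, Pkm of 0.11, Slc2a1 of 0.36, Hif1a of 0.23 and Bnip3 of 0.17. Vegfa, with 6 and 3 UMIs, was not measured. Hilpda met the rule in 9 of 10 alternative settings, Hk2 in 8, and Ndrg1 in 4. Without the 4 wild-type and 23 knockout cycling cells the Hk2 ratio was 0.47 [-0.23, 1.22]. With clusters as classes Hk2 stood at 0.60 [-0.02, 1.27] and Slc2a3 at 0.15 [-0.32, 0.63].

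In CD8 cells, the class with the most T-cell UMIs, 0 of 32 measured genes met the rule either way, against 3.14% upward and 5.94% downward of 11731 measured genes. Their ratios still leaned one way: 27 of 32 lay above 0, where 6130 of all 11731 genes did. Ldha stood at 685.5 CPM in the wild-type and 931.5 CPM in the knockout library, a ratio of 0.44 [0.40, 0.49]. For Tpi1 the ratio was 0.47 [0.40, 0.54], for Slc16a1 0.46 [0.15, 0.78], for Hk2 0.40 [0.15, 0.66], for Gapdh 0.34 [0.31, 0.36] and for Pkm 0.29 [0.23, 0.34]. Slc2a3 had a ratio of 0.16 [0.01, 0.31]. Slc2a1, at 0.07, Hif1a, at 0.09, Bnip3, at 0.25, and Vegfa, at 0.37, had intervals holding 0. Pfkfb4 had the largest ratio in size, -0.89 [-1.78, 0.02]. Cycling cells made up 18.1% of wild-type and 27.8% of knockout CD8 cells, and without them the glycolysis median was 0.14 in place of 0.25.

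Naive T cells had 4 of 32 measured genes higher and 1 lower, against 5.52% and 2.60% of 11158 measured genes. Tpi1 stood at 111.6 and 185.1 CPM, a ratio of 0.73 [0.61, 0.85], and Hk2 at 13.0 and 21.4 CPM, a ratio of 0.72 [0.37, 1.07]. Egln3 was higher, at 0.80 [0.23, 1.39], and Ndrg1, at 0.70 [0.23, 1.18]. Pdk1 was lower, at -0.61 [-0.80, -0.42]. Gapdh had a ratio of 0.58 [0.54, 0.63], Ldha of 0.55 [0.49, 0.62], Hif1a of 0.52 [0.39, 0.65], Pkm of 0.48, Slc2a3 of 0.44, Vegfa of 0.62, Bnip3 of 0.20 and Slc2a1 of 0.03. In clusters of cells named naive T in place of the gate, Tpi1 stood at -0.51, Hk2 at -1.19 and Ndrg1 at -1.75, and the glycolysis median was -0.17. Without cycling cells Tpi1 had a ratio of 0.44 and Hk2 of 0.50. In those clusters Egln3 stood at 0.34 [-0.42, 1.10], an interval holding 0. Pdk1 stood at -0.55 [-0.74, -0.37], lower as in the gate. Neither gene met the size rule there.

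Other T cells, those with neither a clear CD4 nor CD8 call, had 1 of 31 measured genes higher and 2 lower, against 2.93% and 4.01% of 10259 measured genes. Slc16a1 was higher, at 0.95 [0.27, 1.67]. Egln3 was lower, at -0.83 [-1.39, -0.27], and Ndrg1 was lower, at -1.03 [-1.62, -0.45]. Of the 58 wild-type Ndrg1 UMIs 1 cell held 55.2%, and with each cell weighed the same the ratio was 0.17. Pfkfb4, at -1.05 [-2.33, 0.20], did not meet the rule. Haemoglobin genes and Alas2 summed to 2999 CPM in wild-type and 1.60 CPM in knockout other T cells. Gapdh had a ratio of 0.18, Ldha of 0.20, Pkm of 0.09, Hk2 of -0.38, Slc2a1 of -0.27, Slc2a3 of -0.25, Hif1a of 0.33, Vegfa of -0.44 and Bnip3 of -0.29.

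In NK cells 0 of 31 measured genes met the rule either way, against 2.40% upward and 1.68% downward of 11170 measured genes. All measured ratios lay between -0.40 and 0.44. Pgk1, at 0.44 [0.33, 0.54], and Mif, at 0.44 [0.37, 0.50], were the largest, and Pfkfb4, at -0.40 [-1.22, 0.42], the lowest. Gapdh had a ratio of 0.24, Ldha of 0.19, Pkm of 0.22, Hk2 of 0.33, Slc2a1 of 0.30, Slc2a3 of 0.15, Hif1a of 0.16, Bnip3 of 0.23 and Vegfa of 0.13 [-0.07, 0.34]. For Vegfa, that interval leaves room for a difference either way. Haemoglobin and Alas2 RNA was higher in the wild-type library in all 9 compared classes. It summed to 677.4 CPM in wild-type and 3.54 CPM in knockout NK cells, 633.5 and 1.94 CPM in CD8 cells, 693.7 and 6.18 CPM in B cells, 498.8 and 5.68 CPM in monocytes and 470.3 and 7.62 CPM in macrophages. Treg, CD4 conventional and naive T cells held 10.4, 15.6 and 9.57 CPM in the wild-type library and at most 1.92 CPM in the knockout library. Its part in the ratios between genotypes was not tested.

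B cells had 2 of 29 measured genes higher and 2 lower, against 4.91% and 4.44% of 10550 measured genes. Slc2a3 was lower, at 21.7 and 11.2 CPM and a ratio of -0.95 [-1.69, -0.29], and Pdk1 was lower, at -0.59 [-1.09, -0.12]. Hk2 was higher, at 0.84 [0.11, 1.51], and so was Tpi1, at 0.60 [0.35, 0.84]. The knockout library held 409 B cells against 3470, and 20 Slc2a3 UMIs against 267. Without the 5 wild-type and 2 knockout cycling B cells Tpi1 had a ratio of 0.14 and Hk2 of 0.64 [-0.16, 1.37]. Of 10 alternative settings, Pdk1 met the rule in 4, Tpi1 in 5, Hk2 in 8 and Slc2a3 in 9. Gapdh had a ratio of 0.45, Ldha of 0.56, Pkm of 0.41, Bnip3 of 0.44, Slc16a1 of 0.76 [-0.34, 1.73], Slc2a1 of -0.39, Hif1a of 0.09 and Vegfa of 0.35, the last from 27 and 5 UMIs.

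Ly6c2 monocytes had 2 of 33 measured genes higher and 0 lower, against 3.36% and 4.01% of 10612 measured genes. Pfkp stood at 174.0 CPM in the wild-type and 278.6 CPM in the knockout library, a ratio of 0.68 [0.58, 0.78] that met the rule in 9 of 10 alternative settings. Its share of phosphofructokinase UMIs was 73.6% [71.3, 75.8] and 80.4% [79.1, 81.7]. Adm was higher, at 5.05 and 10.8 CPM and a ratio of 1.09 [0.51, 1.71], and the ratio was 0.43 [0.11, 0.77], short of the size rule, with clusters as classes. Hk2, at 0.55 [0.45, 0.65], Slc2a1, at 0.39 [0.28, 0.51], and Bnip3, at 0.24 [0.13, 0.35], had intervals above 0 but fell short of the size rule. Pfkm, at 0.90 [-0.31, 2.26], rested on 8 and 24 UMIs. Gapdh, at 0.09, Pkm, at 0.10, and Ldha, at 0.13, differed little. Hif1a, at 0.06, Slc2a3, at 0.34, and Vegfa, at -0.11, had intervals holding 0.

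C1q macrophages had 6 of 32 measured genes higher and 0 lower, against 3.04% and 4.58% of 9842 measured genes. That upward share was the largest of the compared classes, with CD4 conventional cells next at 5 of 30. Adm was higher, at 17.1 and 39.2 CPM and a ratio of 1.20 [0.75, 1.66], although 1 cell held 25.0% of its knockout UMIs and the ratio was 0.55 with each cell weighed the same. Hif1a was higher, at 93.5 and 144.5 CPM and a ratio of 0.63 [0.43, 0.83], and both prolyl hydroxylases with it, Egln1 at 0.62 [0.40, 0.84] and Egln3 at 0.63 [0.29, 0.97]. Hk1, at 0.65 [0.31, 0.99], and Slc16a3, at 0.59 [0.38, 0.80], completed the set. Slc2a3, at 1.09 [-0.04, 2.32] from 10 and 23 UMIs, and Ldhb, at 0.88 [-0.42, 2.32] from 8 and 16, had intervals holding 0. Hk2 had a ratio of 0.57, Slc2a1 of 0.37, Bnip3 of 0.29, Gapdh of 0.19, Pkm of 0.17, Ldha of 0.11 and Vegfa of 0.13. Cycling cells made up 34.0% and 27.7% of macrophages, and without them the hypoxia median was 0.26 in place of 0.21, the Hk1 ratio 0.29 and the Slc16a3 ratio 0.35. In macrophage-named clusters in place of the gate, Egln3 stood at -0.58 and Hif1a at 0.05.

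Other genes of the connected pathways were measured on the same scale. Of 21 citrate cycle genes, all measured in every compared class, 1 met the size rule in a class: Idh2 in other T cells, at -1.04 [-1.62, -0.47]. None of 7 pentose phosphate genes did, and of 15 respiratory chain genes only Cycs, cytochrome c, in B cells, at 0.72 [0.51, 0.92]. Among 25 further hypoxia genes, Nos2, the inducible nitric oxide synthase, was higher in knockout monocytes, at 0.98 [0.64, 1.34], and macrophages, at 1.94 [1.41, 2.51]. Arg1, arginase, was lower in monocytes, at -0.90 [-0.999, -0.81], and met the rule downward in CD8, other T and B cells as well. Markers of monocytes and macrophages summed to 332.0 and 81.7 CPM in CD8 cells, 429.4 and 159.5 CPM in other T cells, and 146.8 and 116.8 CPM in B cells, with a part in these Arg1 ratios that was not tested. Epas1, which encodes HIF-2α, was higher in CD8 cells, at 1.10 [0.56, 1.67], and so was P4ha2, a collagen prolyl hydroxylase, at 2.48 [0.84, 4.82]. The other genes of that list past the size rule were Plod2, Stc2 and Bhlhe40, higher in naive T cells, Mxi1, higher in CD4 conventional cells, Anxa2, higher in B cells, Vhl, higher in macrophages, Cxcr4, lower in CD4 conventional and B cells, and Rora, lower in monocytes. Of the 18 to 23 genes of the list measured in a class, 0 met the rule in Treg and NK cells. Of 12 genes that control glycolysis, Irf4, a factor induced by antigen receptor signals, was lower in Treg cells, at -1.22 [-1.75, -0.70], and CD4 conventional cells, at -1.36 [-2.56, -0.19]. Txnip, which restrains glucose uptake, was lower in CD8 cells, at -0.84 [-0.94, -0.74]. In monocytes and in macrophages 1 of 10 measured genes that control glycolysis was lower as well, and 0 were higher in any compared class. Of 21 further glycolysis genes, 8 to 13 were measured in a class. Hk3, a myeloid hexokinase, was higher in knockout monocytes, at 0.79 [0.60, 0.99]. Elsewhere, genes of that list higher by the size rule numbered 2 in NK cells and 1 each in CD4 conventional, CD8 and B cells and macrophages. Lower ones numbered 3 of 8 in CD4 conventional cells and 1 each in Treg, CD8 and B cells. In naive T and other T cells 0 met the rule.

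In the 7 classes with under 100 cells in a library, levels are given without a ratio. Monocytes and macrophages outside both myeloid gates, 95 and 147 cells, held 12006 and 13779 CPM of glycolysis genes, more than either gated class. The 109 wild-type neutrophils held 11412 CPM of glycolysis and 4750 CPM of hypoxia genes, the latter the highest of all 16 classes. Hilpda alone stood at 1561 CPM there, Hk2 at 743.7 CPM, Bnip3 at 570.3 CPM, Egln3 at 385.1 CPM and Vegfa at 229.3 CPM. The 27 knockout neutrophils held 3926 CPM of glycolysis and 796 CPM of hypoxia genes and 0 Vegfa UMIs of 95517. Markers of T cells summed to 38.2 CPM in wild-type and 146.6 CPM in knockout neutrophils, a part in these levels that was not tested. Type 1 and type 2 conventional dendritic cells (cDC1 and cDC2) held 4293 and 4845 CPM and 5284 and 6249 CPM of glycolysis genes, mature dendritic cells 5214 and 4186 CPM, plasmacytoid dendritic cells (pDC) 2308 and 3010 CPM, and gamma-delta T cells 2254 and 2316 CPM.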

How the data were processed

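The authors deposited whole-number UMI counts per gene and barcode, with no normalization. Per the submitters' processing notes, the tools were Cell Ranger and STAR and the build mm10; version 5.0.0 of Cell Ranger is written in the file headers. No source used here states the annotation release. A 3′ count can split near-identical genes. Kept were cells of 500 genes or more, 1000 UMIs or more and no more than 10% mitochondrial UMIs. Scrublet (scanpy 1.11.5) called 379 wild-type cells (3.40%) and 0 knockout cells, where it had not worked, so the expected share with the highest scores (1020 and 1015 cells) was removed in both libraries. Each cell took the lineage whose markers it held the largest share of, leading by 0.2. UMIs were summed per class and library and scaled to CPM. Ratios carry exact conditional binomial, levels exact Poisson and shares Clopper-Pearson 95% intervals, computed with scipy 1.17.1 and tested on simulated data.

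A gene was measured at 20 UMIs over both libraries and met the size rule at 1.5-fold with an interval off 1. Of the 33 genes, those named were every gene that met it, the 3 largest ratios per class, and Gapdh, Ldha, Pkm, Hk2, Slc2a1, Slc2a3, Hif1a, Vegfa and Bnip3 in every class. The genes and lists were chosen with earlier results of these data known, and the class pairs and the split by cycling were added after the data were seen. Doublets, class definition, scaling, thinning, cell weight, cycling cells and filters were varied. Promoter sequences are from RefSeq, GRCm38.p6; Slc2a3 and Ndrg1 were not analysed there.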

Additional observations from a re-analysis of the deposited data

Results flagged for a closer look

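Slc2a3, Egln3 and Ndrg1 met the size rule in opposite directions in different classes, which is what set them apart; the differences between classes were not tested. Slc2a3 had a log2 ratio of knockout over wild type of 0.73 in CD4 conventional cells and -0.95 in B cells. Egln3 had 0.80 in naive T cells and 0.63 in C1q macrophages but -0.83 in other T cells. Ndrg1 had 1.20 in CD4 conventional and 0.70 in naive T cells but -0.70 in Treg and -1.03 in other T cells. Single cells held a large part of its UMIs in CD4 conventional and other T cells, as given above. Over the alternative settings Ndrg1 changed direction in each of these classes, reaching -0.34 in CD4 conventional, -1.75 in naive T, 0.31 in Treg and 0.44 in other T cells. Egln3 reached -0.58 in macrophages. The remaining Egln3 and Slc2a3 ratios kept their direction, in some settings with intervals holding 0.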

How the results depend on the processing

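No paired analysis was possible because each genotype had 1 library; for the same reason no library could be left out. Glycolysis genes higher in the knockout library numbered 11 gene and class pairs, 1 with Leiden clusters as classes and 5 without cycling cells; lower pairs numbered 5, 3 at 100 UMIs or without doublet removal and 2 in thinned cells. Higher hypoxia pairs numbered 10 and were 3 with clusters; lower pairs numbered 3, 1 with equal cell weight and 0 in thinned cells or without cycling cells. In Treg cells 1 gene was higher, 4 with the Foxp3 gate and 0 at 100 UMIs, without doublet removal or thinned; 2 were lower, 0 with the Foxp3 gate and 1 with clusters, at 100 UMIs, without doublet removal, thinned or without cycling cells. CD8 cells had 2 higher with equal cell weight, 1 when thinned, and 1 lower without doublet removal; NK cells had 1 higher with equal cell weight or thinned; macrophages had 1 higher with clusters. Genes higher in macrophages than monocytes numbered 5, 2 with clusters or median-ratio scaling, 3 at 100 UMIs, with equal cell weight or without doublet removal, and 8 without cycling cells; lower ones numbered 5, 12 with clusters, 3 at 100 UMIs, 2 with equal cell weight and 1 thinned or without cycling cells. Genes higher in Treg than CD4 conventional cells numbered 6 with the Foxp3 gate, and 1 was lower in CD8 than naive T cells at 100 UMIs. Direction turned with clusters for Egln3 in macrophages (-0.58) and for Hk2 (-1.19), Ndrg1 (-1.75) and Tpi1 (-0.51) in naive T cells, for Ndrg1 in Treg cells with the Foxp3 gate (0.31), for Ndrg1 in other T cells with equal cell weight (0.17) and without cycling cells (0.20), and for Vegfa in Treg cells without doublet removal (-0.25). In thinned cells, where these genes fell below 20 UMIs, it turned for Ndrg1 in CD4 conventional (-0.34) and other T (0.44), Slc16a1 in other T (-0.37) and Adm in macrophages (-0.20), each with an interval holding 0; Vegfa in wild-type Treg cells then held 0 UMIs, so it gave no ratio. The cause was not tested. No cluster took the name other T, so that class had no value there, and counts over pairs then cover fewer classes. The other 146 counts kept within 1.5 times. Median-ratio scaling moved the naive T median of all genes from 0.10 to 0.00 and its genes met upward and downward from 616 and 290 to 429 and 415; in B cells 518 and 468 became 623 and 325, and in monocytes 357 and 426 became 428 and 328.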
